A study of Sus scrofa with 32 samples.

Results

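Collagens, laminins, fibulins, fibrillins, lysyl oxidases and integrins form the fibrous scaffold around muscle fibres and the receptors that hold cells to it. These genes were followed in loin muscle (longissimus dorsi) of pigs from 4 breed groups. Members were taken by symbol: every gene named COL, LAM, FBLN, FBN, LOX or ITG with the chain numbering of those families. The files listed 63 such genes among 17930, and 53 of them had enough reads to be tested. The other 10 (COL4A3, COL4A4, COL4A5, COL11A2, COL2A1, COL9A1, COL17A1, COL22A1, COL23A1 and LAMC3) had at most 203 reads over all libraries together, against at least 324 for every tested member. A symbol was found for 60.4% of the gene identifiers. Several chains of these families, among them COL1A1, COL4A1, COL18A1, LAMA2, ITGA7 and LOXL2, are not analysed here.

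The groups were DLDPL (Duroc crossed with Landrace and Dapulian), LDPL (Landrace crossed with Dapulian), DPL (Dapulian, an indigenous Chinese breed) and L (Landrace, a lean commercial breed). Each group held 8 pigs, 1 library each, all labelled wild type, 6 months old and reared in a similar environment on similar feed. No group of Duroc pigs was analysed, and the labels give neither sex nor batch. The replicate numbers of L form a series of their own, while the other 3 groups share 1 series, so an effect of breed in L and one of separate handling cannot be told apart.

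In muscle, fibroblasts secrete the fibrillar collagens, which assemble into the cable-like fibrils of the endomysium and perimysium and carry force to the tendon. Each fibre and capillary is wrapped in a basement membrane, a sheet of laminins and type IV collagen. Type VI collagen forms beaded filaments that tie this sheet to the fibrils. Lysyl oxidases crosslink collagen and elastin chains, fibrillins form the microfibrils of elastic fibres, and integrins are receptors made of an alpha and a beta chain that span the cell membrane and bind these proteins. In whole tissue, fewer cells of a type and less RNA per cell cannot be told apart.

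Levels below are TMM-scaled RPKM, that is reads per kilobase of gene and per 1000000 reads after the library total was adjusted by the TMM method, so genes can be compared with each other. Depth was 21.7 to 29.7 M reads per library (M, 1000000); libraries of 1 group differed by more than sampling noise. The members took 24.4 ± 9.42 reads per 10000 in DLDPL, 20.2 ± 4.85 in LDPL, 13.6 ± 4.26 in DPL and 30.0 ± 10.0 in L (SD, n = 8 each). Mitochondrial genes took 22.7%, 22.9%, 31.3% and 20.8% of the reads of DLDPL, LDPL, DPL and L. Muscle markers were present in every library, with summed levels of 48437 to 85065 in DLDPL, 63694 to 89272 in LDPL, 40393 to 83171 in DPL and 39912 to 104605 in L. No library was left out.

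COL3A1, the chain of type III collagen, was the most abundant member in all 4 groups, with 149 ± 59.2 in DLDPL, 109 ± 40.8 in LDPL, 48.4 ± 23.9 in DPL and 217 ± 47.2 in L. ITGB1, the beta chain shared by most matrix-binding integrins, held rank 2 in DLDPL, LDPL and DPL (45.9 ± 8.13, 51.2 ± 5.06 and 39.3 ± 5.33) and was the third in L (46.3 ± 9.20). COL1A2, a chain of type I collagen, held rank 3 in DLDPL, 3 in LDPL, 6 in DPL and 2 in L. Chains of type VI collagen, COL4A2 of type IV collagen and the laminin chain LAMC1 followed. Among receptors, ITGA5, the alpha chain of the fibronectin receptor, averaged 7.49 over all libraries, ITGA1 3.32, and the other 12 tested alpha or beta chains stood under 3.

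The widest contrast lay between DPL and L. Of 53 members, 22 fell and 3 rose in DPL (edgeR quasi-likelihood test, Benjamini-Hochberg adjusted p under 0.05), where 18.9% of all 12821 tested genes fell and 19.1% rose. The median log2 change was -0.54 over the members and -0.02 over all tested genes. By class, all 7 tested fibrillar collagens fell, as did 3 of 4 fibril-associated collagens, 2 of 5 beaded filament collagens, 5 of 10 basement membrane chains, 3 of 6 fibrillins and fibulins and 2 of 15 integrins. The genes that rose were ITGA5, FBLN2 and COL13A1. With mitochondrial reads left out of the fit, the counts were again 22 lower and 3 higher. Limma on log2(RPKM + 1) split the calls over all genes into 1277 higher and 3412 lower in DPL, against 2455 higher and 2418 lower in edgeR.

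**Figure D1:**
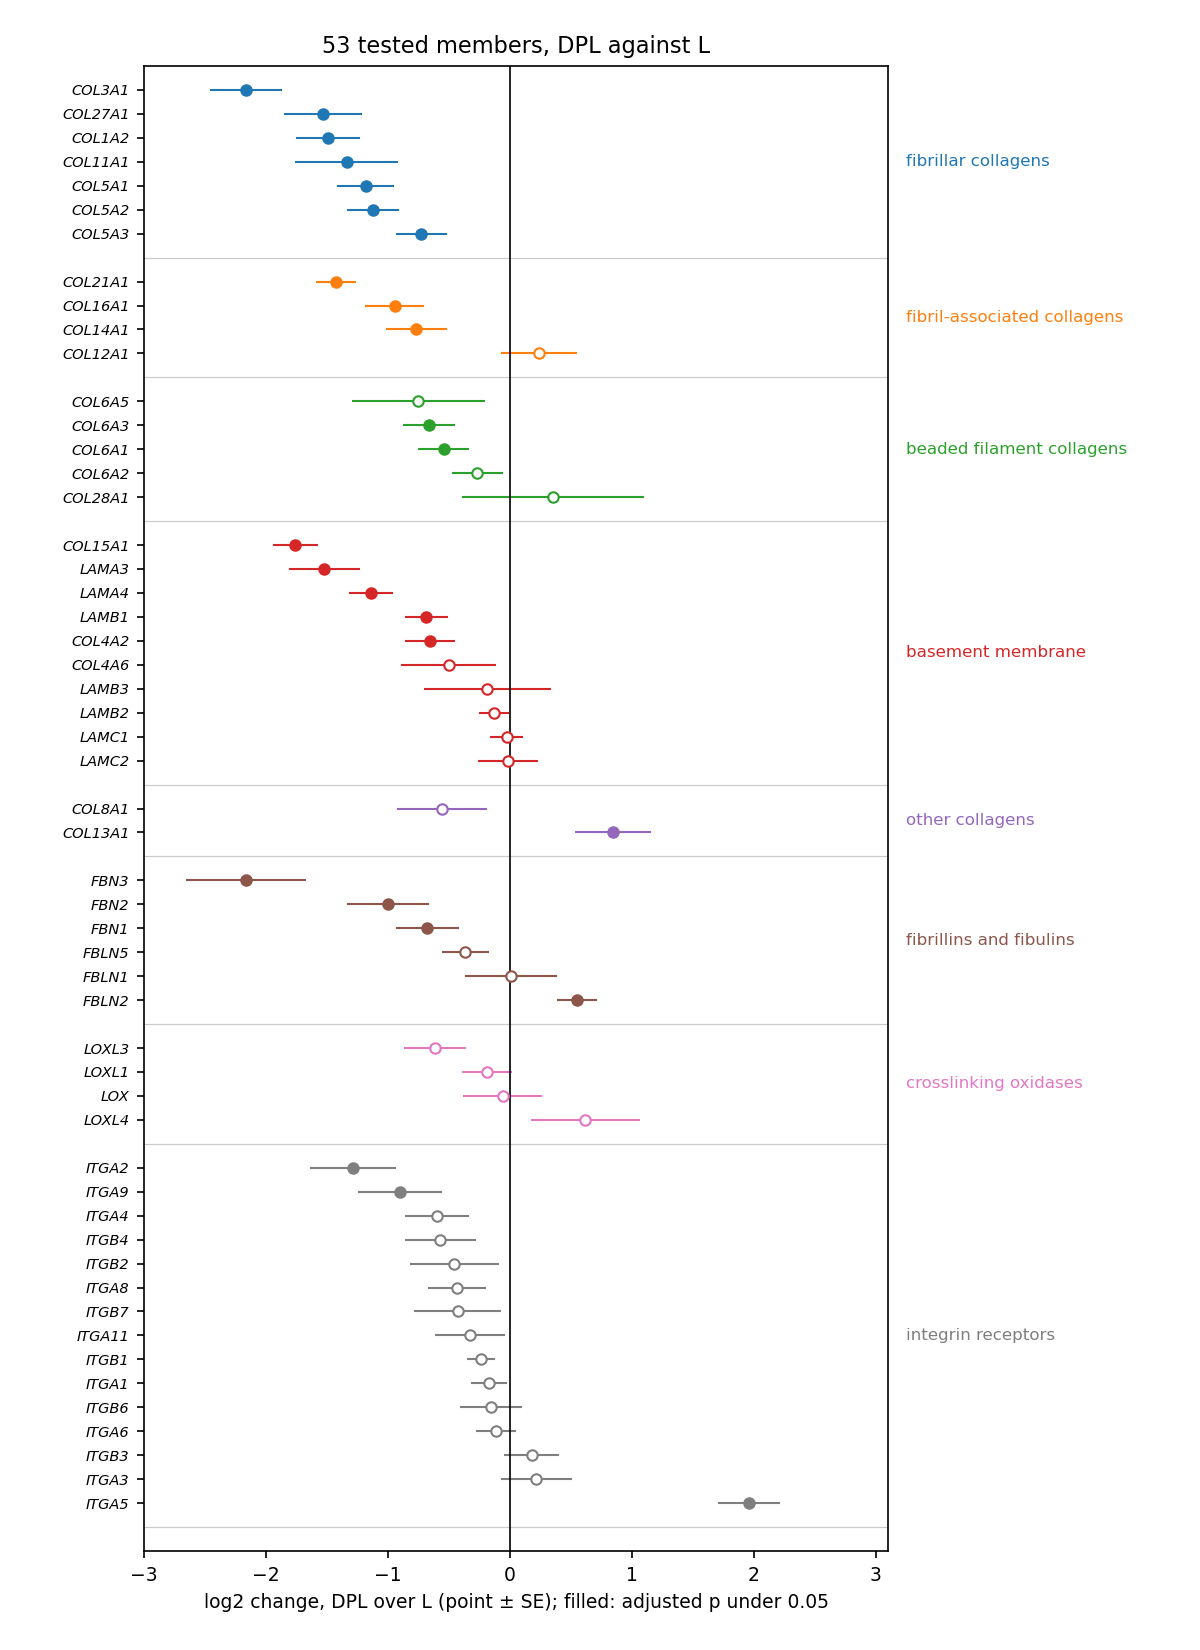
Log2 change of each of the 53 tested members in DPL over L, as points with standard errors, grouped by class and filled where the adjusted p was under 0.05. All 7 fibrillar collagens lie left of 0, ITGA5 lies far right at 1.96, and most integrins and all crosslinking oxidases are open points.

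COL3A1 ranged from 11.1 to 88.1 (median 45.7) in DPL and from 148 to 294 (median 216) in L. No DPL library reached the lowest L library. The log2 change was -2.16 ± 0.30 (SE, adjusted p = 8.16e-07), a level 4.48-fold lower in DPL, and COL3A1 had 1405 to 10202 reads in a DPL library and 17897 to 44613 in an L library. COL1A2 ranged from 5.31 to 36.3 (median 17.5) in DPL and from 35.3 to 59.98 (median 50.6) in L, and was 2.81-fold lower in DPL (log2 change -1.49 ± 0.26, adjusted p = 3.27e-05). Only DPL replicate 16 reached the range of L.

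Type V collagen, which sits in the core of type I fibrils and limits their width, was lower as well. COL5A1 ranged from 1.57 to 7.39 (median 3.18) in DPL and from 5.87 to 10.5 (median 8.38) in L, with a log2 change of -1.18 ± 0.24 (adjusted p = 0.000184). COL5A2 ranged from 3.47 to 11.9 (median 6.99) in DPL and from 11.7 to 24.3 (median 14.9) in L, with a log2 change of -1.12 ± 0.21 (adjusted p = 9.73e-05). For both genes only DPL replicate 16 reached the range of L. COL5A3 was 1.65-fold lower in DPL, and the scarce COL11A1 2.53-fold. COL27A1, a fibrillar collagen best known from cartilage, ranged from 0.0386 to 0.156 in DPL and from 0.165 to 0.308 in L without overlap (log2 change -1.53 ± 0.32, adjusted p = 0.000334), on 4 to 26 reads per DPL library and 26 to 51 per L library.

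**Figure D2:**
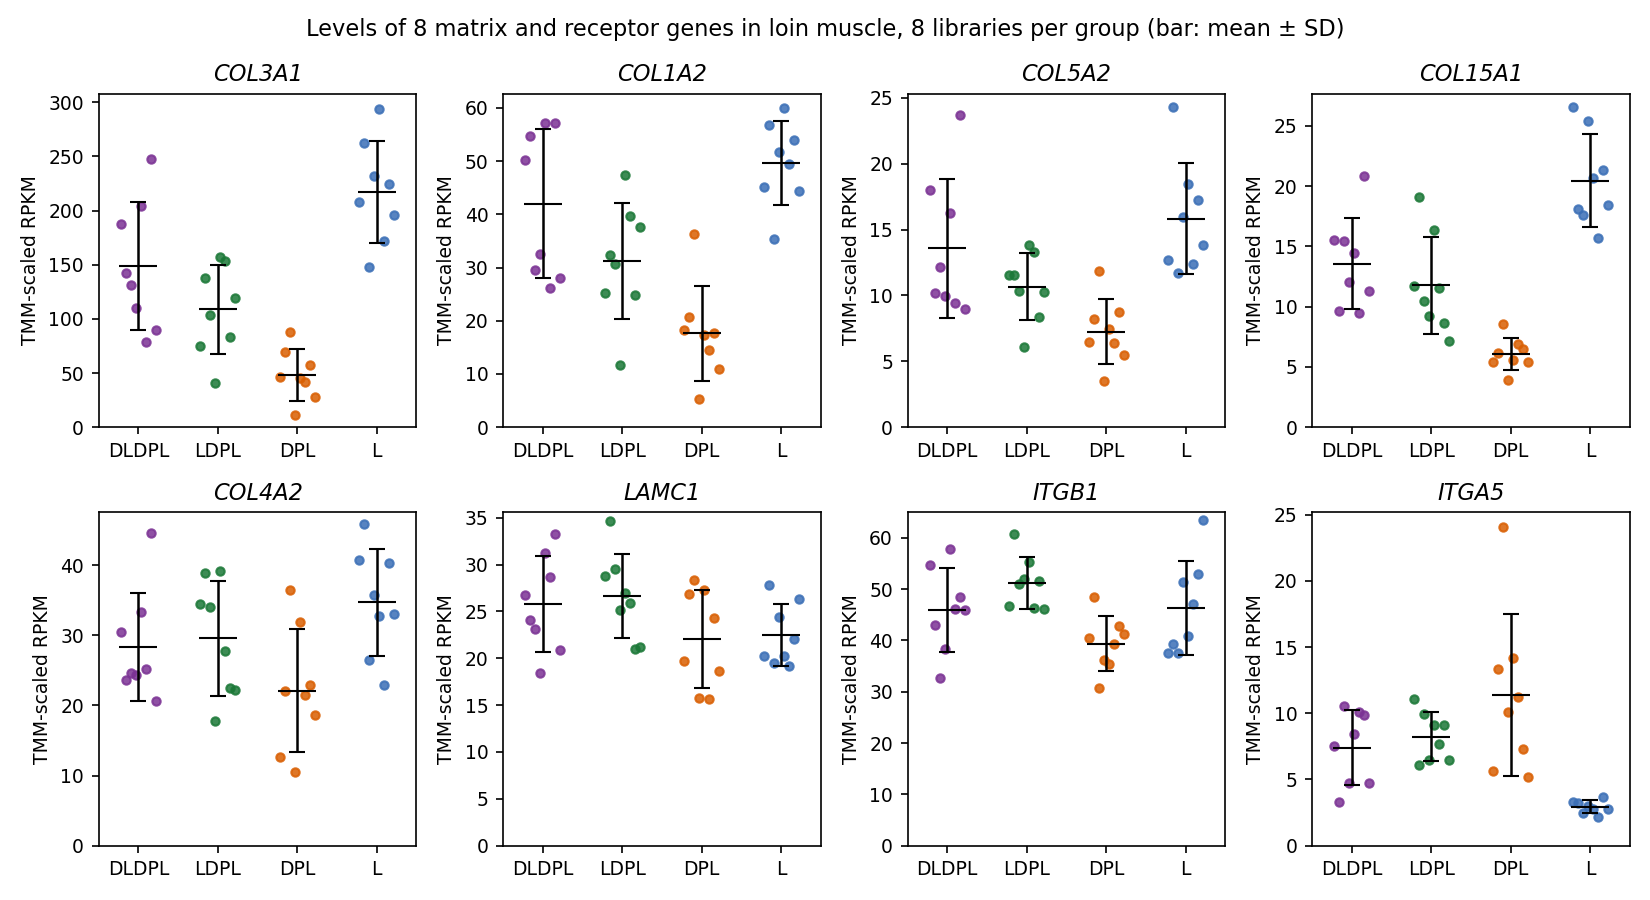
TMM-scaled RPKM of 8 genes in DLDPL, LDPL, DPL and L, 1 point per library, with the mean and SD as a bar. COL3A1, COL1A2, COL5A2 and COL15A1 are lowest in DPL and highest in L, the LAMC1 ranges of all groups overlap, ITGB1 lies at 46.2 to 60.8 in LDPL and 30.7 to 48.4 in DPL, and ITGA5 is lowest in L.

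Single libraries set the ends of these ranges. DPL replicate 16 was the highest of its group for all 7 tested fibrillar collagens, and DPL replicate 19 the lowest for 6 of 7. DPL replicate 16 also had 37.3% mitochondrial reads, the highest share of all libraries, and DPL replicate 19 had 31.2%. Without DPL replicate 16, 27 members were lower in DPL than in L. In L, replicate 7 was highest for 4 of the 7 genes and replicate 2 for the other 3.

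The fibril-associated collagens bind to the surface of fibrils. COL21A1 ranged from 0.658 to 0.928 (median 0.811) in DPL and from 1.59 to 2.62 (median 2.19) in L, with no overlap and a log2 change of -1.42 ± 0.16 (adjusted p = 5.47e-08). COL16A1 averaged 0.471 ± 0.121 in DPL and 0.903 ± 0.377 in L (log2 change -0.95 ± 0.24, adjusted p = 0.00229). COL14A1 averaged 4.56 ± 1.70 in DPL and 7.77 ± 2.37 in L (log2 change -0.77 ± 0.25, adjusted p = 0.0148). COL12A1, known from tendon and muscle sheaths, averaged 2.16 ± 1.33 in DPL and 1.82 ± 0.530 in L and did not pass the test (log2 change 0.24 ± 0.31, adjusted p = 0.575).

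Of the type VI collagen chains, COL6A3 averaged 11.4 ± 4.75 in DPL and 18.1 ± 4.89 in L (log2 change -0.66 ± 0.21, adjusted p = 0.0136), and COL6A1 averaged 17.5 ± 6.99 in DPL and 25.4 ± 7.93 in L (log2 change -0.54 ± 0.21, adjusted p = 0.0357). COL6A2, which joins them in 1 molecule, averaged 29.0 ± 13.7 in DPL and 34.9 ± 9.42 in L and was not called (log2 change -0.27 ± 0.21, adjusted p = 0.32). The call of COL6A1 was lost without any one of DPL replicates 7, 19, 23 and 26 and L replicates 1, 2 and 5, with log2 changes between -0.71 and -0.41 over all left-out libraries. COL28A1 spanned 0.0270 to 0.932 in DPL and 0.0232 to 1.14 in L and was not called.

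In the basement membrane, 3 of 10 tested chains were lower in DPL than in L without overlap, where 3.42% of all tested genes were. COL15A1, a collagen that links the basement membrane to the fibrils beneath, ranged from 3.94 to 8.53 (median 5.85) in DPL and from 15.7 to 26.5 (median 19.5) in L. Its log2 change was -1.76 ± 0.18 (adjusted p = 9.73e-09), the smallest adjusted p of any member in this pair. Its listed gene length of 914 bases is short for a collagen, so its level beside other genes is uncertain. LAMA4, the alpha chain of laminins in blood vessels and around fat cells, ranged from 3.57 to 5.98 (median 4.69) in DPL and from 6.81 to 14.1 (median 10.2) in L (log2 change -1.14 ± 0.18, adjusted p = 7.99e-06). LAMA3, an alpha chain of epithelial laminins, stood at 0.0628 to 0.279 in DPL and 0.292 to 0.835 in L (log2 change -1.52 ± 0.29, adjusted p = 0.000124). It had 6 to 29 reads per DPL library and 39 to 120 per L library.

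Among the more abundant chains, LAMB1 averaged 9.75 ± 2.88 in DPL and 15.7 ± 4.43 in L (log2 change -0.69 ± 0.18, adjusted p = 0.00252), and COL4A2 averaged 22.1 ± 8.77 in DPL and 34.8 ± 7.62 in L (log2 change -0.65 ± 0.21, adjusted p = 0.012). LAMC1, the gamma chain of most laminins, averaged 22.1 ± 5.25 in DPL and 22.5 ± 3.32 in L, and its log2 change of -0.03 ± 0.14 did not pass the test (adjusted p = 0.902). LAMA4 was thus 2.20-fold lower in DPL, and the change of LAMC1 lay within a standard error of 0; the difference between these 2 changes was not tested.

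Summed over a class, the fibrillar collagens stood at 25.9 to 156 (median 81.0) in DPL and 210 to 392 (median 303) in L, and the basement membrane chains at 56.5 to 116 (median 78.7) in DPL and 91.7 to 157 (median 126) in L. COL3A1 makes up most of the fibrillar sum. Within a library, the fibrillar sum was 2.05 ± 0.463 times the basement membrane sum in DLDPL, 1.60 ± 0.463 times in LDPL, 0.980 ± 0.292 times in DPL and 2.45 ± 0.360 times in L. That ratio does not depend on how libraries are scaled, but its size depends on which chains are listed and on their listed lengths. COL1A1 is absent from the fibrillar sum, and COL4A1, COL18A1 and LAMA2 from the basement membrane sum, which includes COL15A1 with its short listed length. The highest ratio in DPL was 1.34, in replicate 16, and the lowest in L was 2.05, in replicate 4. The crosses reached past both of these ends and overlapped DPL and L, from 1.22 to 2.47 in DLDPL and from 0.876 to 2.16 in LDPL.

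**Figure D3:**
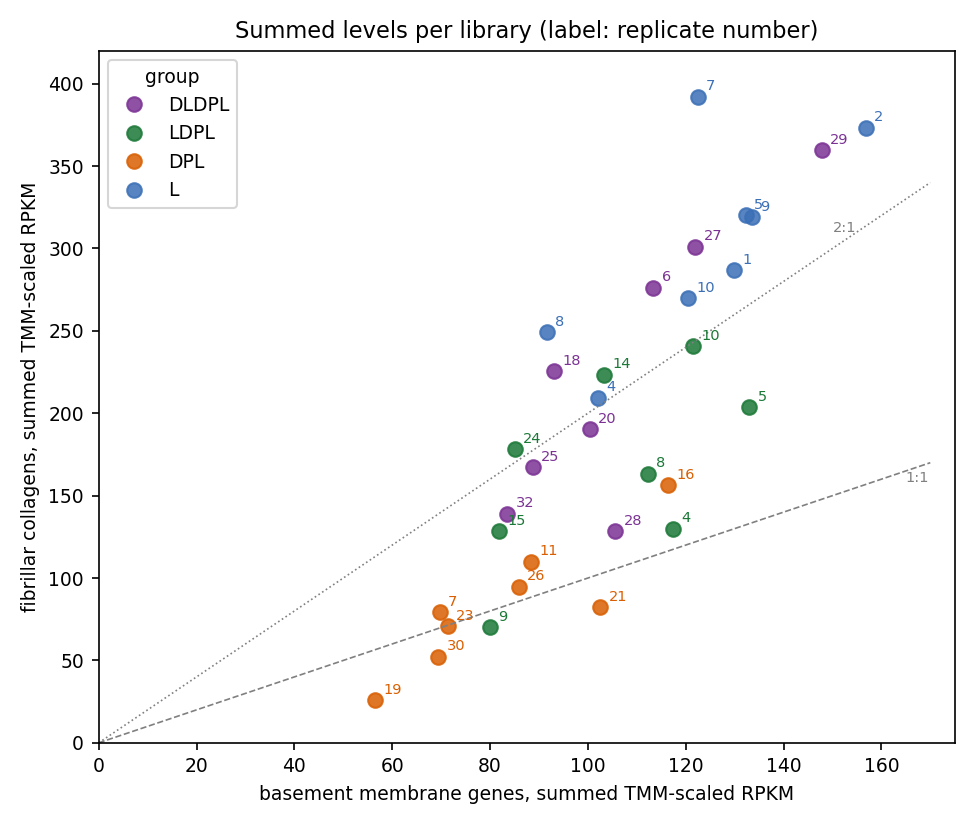
Summed TMM-scaled RPKM of the fibrillar collagens (vertical) against that of the basement membrane genes (horizontal), 1 point per library, labelled with its replicate number; the lines mark ratios of 1:1 and 2:1. All 8 L libraries lie above the 2:1 line, and all 8 DPL libraries lie below it.

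Of the microfibril and elastic fibre genes, the fibrillins were lower in DPL. FBN1, the main fibrillin of adult tissue, averaged 3.75 ± 1.498 in DPL and 6.00 ± 1.504 in L (log2 change -0.68 ± 0.26, adjusted p = 0.0361). That call was lost without any one of DPL replicates 7, 19, 21, 23 and 30 and L replicates 2, 5, 7 and 10, with an adjusted p of up to 0.0796. FBN2 averaged 0.0777 ± 0.0373 in DPL and 0.155 ± 0.0915 in L (log2 change -0.997 ± 0.34, adjusted p = 0.0187), and without L replicate 2 the call was lost and the log2 change was -0.68. FBN3, a fibrillin best known from fetal tissue in humans, ranged from 0 to 0.157 in DPL, with 2 libraries at 0, and from 0.230 to 0.580 in L (log2 change -2.16 ± 0.49, adjusted p = 0.000736), on at most 12 reads per DPL library and 19 to 52 per L library.

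Of the fibulins, which bridge elastic fibres and other matrix proteins, 1 of 3 was called, and it was higher in DPL. FBLN2 ranged from 4.70 to 10.7 (median 6.48) in DPL and from 3.17 to 6.96 (median 4.39) in L, with a log2 change of 0.55 ± 0.17 (adjusted p = 0.00877). Under limma on log2(RPKM + 1) and log2(RPKM + 0.1) it was not called. FBLN1 averaged 4.97 ± 3.32 in DPL and 4.91 ± 4.33 in L, each mean raised by 1 library: DPL replicate 16 stood at 12.8 and L replicate 2 at 15.4. FBLN5, needed for elastic fibre assembly, averaged 7.46 ± 1.86 in DPL and 9.59 ± 2.87 in L and was not called (log2 change -0.36 ± 0.19, adjusted p = 0.131).

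None of the 4 crosslinking enzymes was called in DPL against L, where 38.0% of all tested genes were called. LOX, the founding lysyl oxidase, averaged 2.16 ± 1.13 in DPL and 2.24 ± 0.756 in L (log2 change -0.06 ± 0.32, adjusted p = 0.907). LOXL1 averaged 1.15 ± 0.260 in DPL and 1.30 ± 0.423 in L (log2 change -0.18 ± 0.20, adjusted p = 0.5). LOXL3 came nearest to a call, with 0.140 ± 0.0619 in DPL and 0.214 ± 0.0417 in L (log2 change -0.61 ± 0.26, adjusted p = 0.0556). Of the 4 oxidases, edgeR called 0, with 1 at an unadjusted p under 0.05, DESeq2 called 0, and limma called 1 with either pseudocount.

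Most receptors, 12 of 15, did not pass the test, and neither did 7948 of all 12821 tested genes. ITGB1 ranged from 30.7 to 48.4 (median 40.0) in DPL and from 37.5 to 63.4 (median 44.1) in L, and its log2 change of -0.23 ± 0.11 did not pass the test (adjusted p = 0.105). The median log2 change of the 15 integrins was -0.33. ITGA2, an alpha chain of a collagen receptor, averaged 0.0865 ± 0.0508 in DPL and 0.209 ± 0.0664 in L (log2 change -1.29 ± 0.35, adjusted p = 0.00406), and ITGA9 was 1.87-fold lower in DPL.

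ITGA5 rose in DPL. It ranged from 5.15 to 24.1 (median 10.7) in DPL and from 2.14 to 3.70 (median 2.90) in L, so that every DPL library exceeded every L library. The log2 change was 1.96 ± 0.25 (adjusted p = 3.23e-07), a level 3.89-fold higher in DPL. Among the members it held rank 10 in DPL and 23 in L. Non-overlapping ranges were found for 7 members lower in DPL (COL15A1, LAMA3, LAMA4, COL21A1, COL27A1, COL3A1 and FBN3) and 1 higher (ITGA5), where 3.42% of all tested genes were lower and 4.12% higher without overlap. COL13A1, a membrane collagen of the neuromuscular junction, averaged 0.260 ± 0.0426 in DPL and 0.143 ± 0.0700 in L (log2 change 0.84 ± 0.31, adjusted p = 0.0325), on 4 to 30 reads per library. Its call was lost without DPL replicate 7 or any one of L replicates 4, 7, 8 and 10, with log2 changes of 0.72 to 1.03.

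The crosses were set against L with the same fit, and these comparisons share the L libraries. In LDPL, 15 of 53 members fell and 1 rose, where 14.7% of all tested genes fell and 14.9% rose. Of the fibrillar collagens, 5 of 7 were lower. COL3A1 ranged from 41.0 to 157 (median 111) in LDPL and from 148 to 294 (median 216) in L (log2 change -0.996 ± 0.29, adjusted p = 0.00843). COL27A1 averaged 0.0968 ± 0.0452 in LDPL and 0.226 ± 0.0417 in L (log2 change -1.22 ± 0.32, adjusted p = 0.00386). COL1A2 averaged 31.2 ± 10.9 in LDPL and 49.6 ± 7.87 in L (log2 change -0.67 ± 0.26, adjusted p = 0.0457). That call was lost in 13 of the 32 fits with 1 library left out, where the log2 change lay between -0.78 and -0.55.

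Basement membrane chains lower in LDPL than in L were COL15A1 (log2 change -0.80 ± 0.18, adjusted p = 0.000992), LAMA4 (-0.71 ± 0.18, adjusted p = 0.00274) and LAMA3 (-1.11 ± 0.29, adjusted p = 0.00374). Of the 4 crosslinking enzymes, 2 fell in this pair. LOXL3 averaged 0.119 ± 0.0354 in LDPL and 0.214 ± 0.0417 in L (log2 change -0.85 ± 0.26, adjusted p = 0.0124), and LOX averaged 1.23 ± 0.728 in LDPL and 2.24 ± 0.756 in L (log2 change -0.87 ± 0.33, adjusted p = 0.0459). The LOX call was lost in 12 of the 32 fits with 1 library left out. LOXL4 averaged 1.67 ± 2.49 in LDPL, where replicate 4 stood at 7.80, and 0.805 ± 0.363 in L, and was not called (log2 change 1.05 ± 0.45, adjusted p = 0.0745). ITGB4, the partner of ITGA6 in hemidesmosomes, averaged 0.520 ± 0.218 in LDPL and 0.983 ± 0.257 in L (log2 change -0.92 ± 0.29, adjusted p = 0.0168).

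The gene that rose in LDPL was again ITGA5, with 6.13 to 11.1 (median 8.39) in LDPL and 2.14 to 3.70 (median 2.90) in L and no overlap (log2 change 1.49 ± 0.25, adjusted p = 3.05e-05), where 3.97% of all tested genes were higher in LDPL without overlap. One further gene or 2 were called higher without DLDPL replicates 6, 20, 25 or 29, LDPL replicates 5, 9 or 15, DPL replicates 16 or 19, or L replicates 2 or 5, which gave counts of 2 or 3.

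In DLDPL against L, 6 of 53 members fell and 2 rose, where 10.3% of all tested genes fell and 11.6% rose. None of the 7 fibrillar collagens was called by edgeR, and 0 had an unadjusted p under 0.05. COL3A1 ranged from 79.0 to 247 (median 136) in DLDPL and from 148 to 294 (median 216) in L, with overlap (log2 change -0.54 ± 0.28, adjusted p = 0.173). COL15A1 fell, with 13.6 ± 3.80 in DLDPL and 20.5 ± 3.84 in L (log2 change -0.59 ± 0.18, adjusted p = 0.0157). LOXL3 averaged 0.124 ± 0.0452 in DLDPL and 0.214 ± 0.0417 in L (log2 change -0.77 ± 0.26, adjusted p = 0.027), and its call was lost without DLDPL replicate 28.

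ITGA5 rose, with 7.40 ± 2.81 in DLDPL and 2.92 ± 0.494 in L (log2 change 1.34 ± 0.25, adjusted p = 0.000199). FBLN2 averaged 6.72 ± 1.92 in DLDPL and 4.70 ± 1.15 in L (log2 change 0.52 ± 0.17, adjusted p = 0.0236), and without DLDPL replicates 28 or 29 or L replicate 10 only 1 member was called higher. The other members that fell were COL6A5, ITGA4, ITGA8 and ITGB7, the last 3 of which were picked out after their values were seen. Limma with either pseudocount called 1 integrin lower, where edgeR called 3, and did not call COL6A5. ITGA8, which pairs with ITGB1, averaged 0.534 ± 0.130 in DLDPL and 0.864 ± 0.195 in L (log2 change -0.69 ± 0.24, adjusted p = 0.037). ITGB7, an integrin chain of lymphocytes, averaged 0.266 ± 0.178 in DLDPL and 0.556 ± 0.284 in L (log2 change -1.07 ± 0.37, adjusted p = 0.0335). ITGA4, which pairs with ITGB7 or ITGB1, averaged 0.355 ± 0.1202 in DLDPL and 0.589 ± 0.290 in L (log2 change -0.73 ± 0.26, adjusted p = 0.0424). L replicate 2 was the highest L library for ITGB7 (1.19) and for ITGA4 (1.10). Of 5 tested lymphocyte markers, 4 were also lower in DLDPL than in L, with a median log2 change of -1.23. Their summed level, over 7 genes in the files, stood at 1.74 to 3.45 in DLDPL and 2.09 to 13.1 in L, and none of these genes was at 0 in all 32 libraries. The part of lymphocytes in the integrin differences was not tested. The count lower in DLDPL was 2 or 3 without DLDPL replicates 20, 28 or 32 or L replicates 2, 5 or 10.

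**Figure D4:**
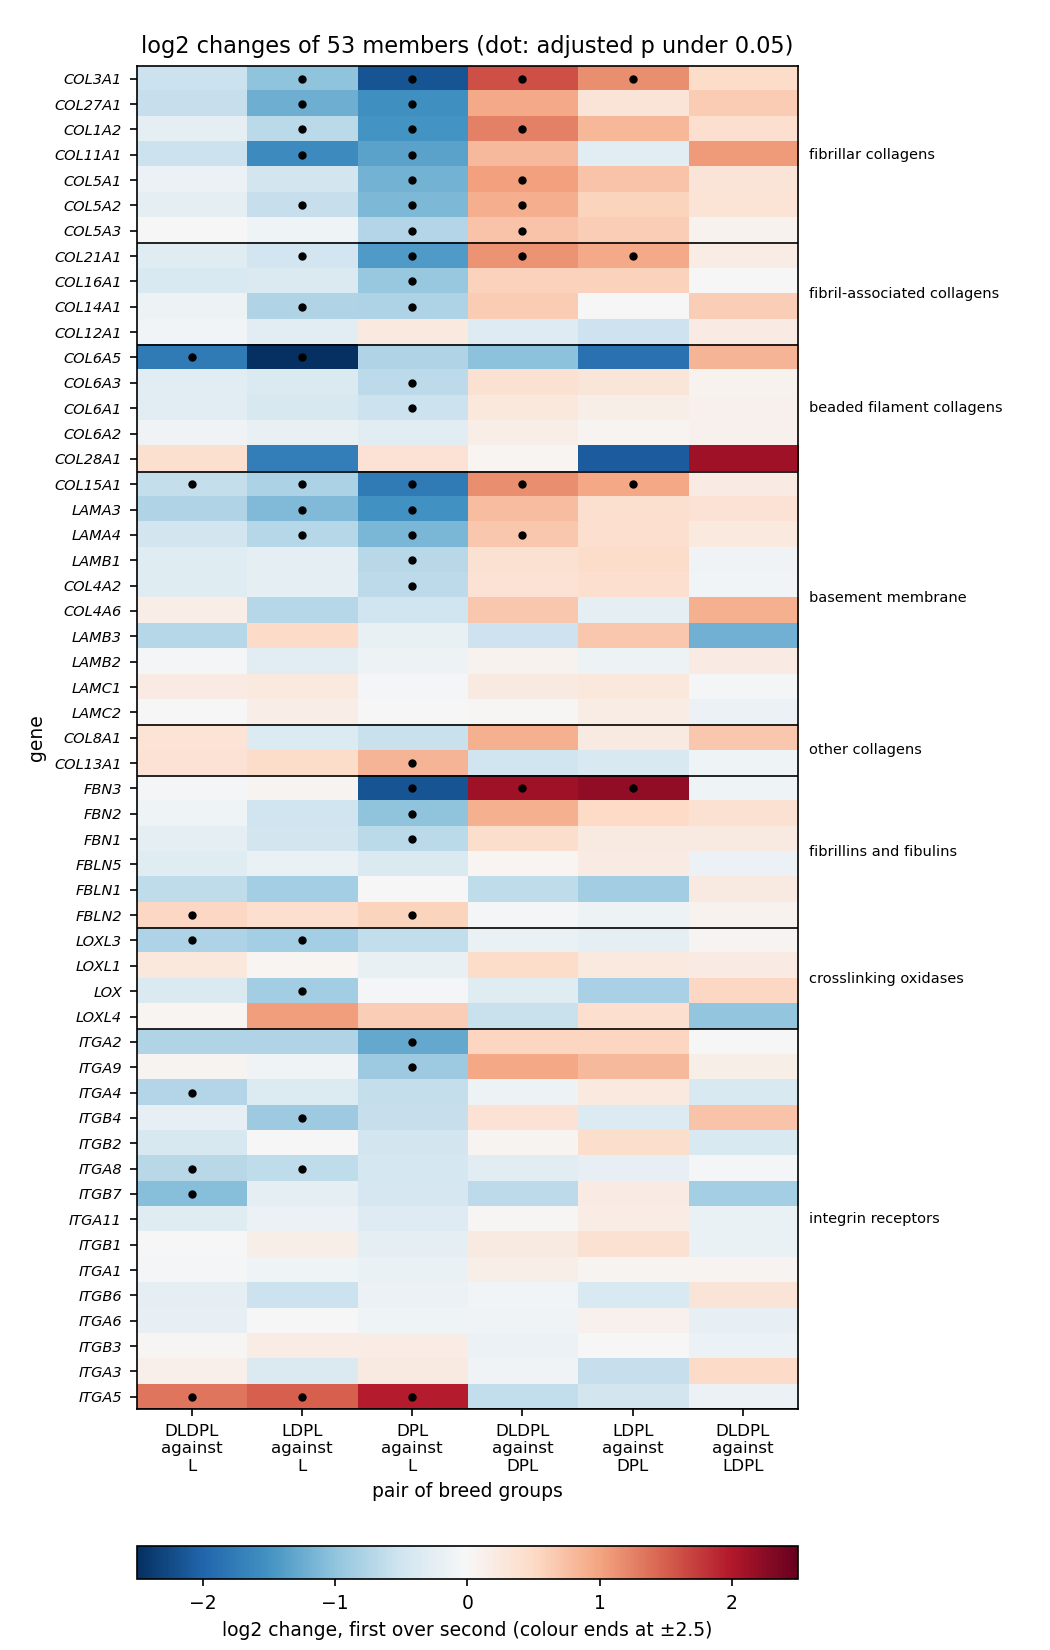
Log2 changes of the 53 members (rows, by class) in the 6 pairs of groups (columns), first-named over second-named; red is higher and blue lower in the first-named group, and a dot marks an adjusted p under 0.05. Dots fill the fibrillar rows in DPL against L, are fewer in LDPL against L, and are absent from DLDPL against LDPL.

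The crosses were next set against DPL. In DLDPL, 9 of 53 members rose, where 1.98% of all tested genes rose. No member fell by edgeR, DESeq2 or limma, with 1 lower at an unadjusted p under 0.05 in edgeR, and 2.12% of all tested genes fell. The 9 were COL3A1, COL1A2, COL5A1, COL5A2, COL5A3, COL21A1, COL15A1, LAMA4 and FBN3. COL3A1 ranged from 79.0 to 247 (median 136) in DLDPL and from 11.1 to 88.1 (median 45.7) in DPL, a 3.08-fold higher level in DLDPL (log2 change 1.62 ± 0.29, adjusted p = 0.00153). COL1A2 ranged from 26.2 to 57.2 (median 41.4) in DLDPL and from 5.31 to 36.3 (median 17.5) in DPL (log2 change 1.25 ± 0.26, adjusted p = 0.00448). COL5A1 was 2.05-fold higher in DLDPL (adjusted p = 0.00948) and COL5A2 1.87-fold (adjusted p = 0.0119).

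COL15A1 and COL21A1 were higher in every DLDPL library than in any DPL library, where 0.234% of all tested genes were. COL15A1 ranged from 9.45 to 20.8 in DLDPL and from 3.94 to 8.53 in DPL (log2 change 1.17 ± 0.18, adjusted p = 0.000304), and COL21A1 from 1.35 to 2.46 in DLDPL and from 0.658 to 0.928 in DPL (log2 change 1.13 ± 0.17, adjusted p = 0.000183). LAMA4 averaged 7.43 ± 1.74 in DLDPL and 4.66 ± 0.811 in DPL (log2 change 0.67 ± 0.18, adjusted p = 0.0268), and its call was lost without DLDPL replicates 6, 27 or 29.

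In LDPL, 4 members rose over DPL, where 1.29% of all tested genes rose. COL3A1 ranged from 41.0 to 157 (median 111) in LDPL and from 11.1 to 88.1 (median 45.7) in DPL (log2 change 1.17 ± 0.29, adjusted p = 0.0243), a call lost without LDPL replicates 5 or 10. COL15A1 averaged 11.8 ± 4.04 in LDPL and 6.05 ± 1.34 in DPL (log2 change 0.96 ± 0.18, adjusted p = 0.00452). COL21A1 ranged from 0.985 to 2.41 in LDPL and from 0.658 to 0.928 in DPL, without overlap (log2 change 0.94 ± 0.17, adjusted p = 0.0026), where 0.0858% of all tested genes were higher without overlap. FBN3 averaged 0.339 ± 0.214 in LDPL and 0.0726 ± 0.0579 in DPL (log2 change 2.23 ± 0.49, adjusted p = 0.0121). Without DPL replicate 16, 7 members rose in LDPL.

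COL1A2 averaged 31.2 ± 10.9 in LDPL and 17.6 ± 9.00 in DPL but missed the threshold (log2 change 0.82 ± 0.26, adjusted p = 0.0716), as did ITGB1 with 51.2 ± 5.06 in LDPL and 39.3 ± 5.33 in DPL (log2 change 0.38 ± 0.11, adjusted p = 0.0606). No member fell in LDPL by edgeR, with 4 lower at an unadjusted p under 0.05, where 1.56% of all tested genes fell, and DESeq2 called 1 lower. DESeq2 called 6 members higher in LDPL, among them 2 fibrillar collagens and 1 integrin. DLDPL was last set against LDPL. EdgeR called 0 members and 0.0% of all genes, with 8 members at an unadjusted p under 0.05, and DESeq2 and limma also called 0 members. Over all genes, DESeq2 called 26 higher and 7 lower in DLDPL, limma called 0, and edgeR without the filter called 2 lower. COL3A1 averaged 149 ± 59.2 in DLDPL and 109 ± 40.8 in LDPL, with a log2 change of 0.45 ± 0.28.

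LDPL was also set against the midpoint of its parent breeds on the log2 scale. Only COL6A5, a scarce chain of the type VI family, was called apart from it. It was lower (log2 change -2.25 ± 0.58, adjusted p = 0.013), where 2.99% of all tested genes were lower and 5.13% higher. At an unadjusted p under 0.05, edgeR had 4 members higher and 8 lower, and 2975 of all 12821 tested genes in either direction. A member that was not called need not lie at the midpoint. COL6A5 averaged 0.0198 ± 0.0161 in LDPL, 0.0726 ± 0.0552 in DPL and 0.125 ± 0.131 in L, and had at most 9 reads in an LDPL library. Without LDPL replicates 4, 10 or 14, 2 members were called lower. Without LDPL replicates 8, 14 or 24, DPL replicates 16 or 30, or L replicates 1 or 10, 1 member was called higher. COL3A1 lay 0.09 ± 0.25 from the midpoint (adjusted p = 0.88) and COL15A1 0.08 ± 0.15 (adjusted p = 0.81). Over the 4 groups at once, 21 of 53 members differed, against 37.4% of all tested genes, and all 7 fibrillar collagens were among them.

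Genes that make and process collagen were listed separately, 19 of them tested. In DPL against L, 10 fell and 3 rose, with a median log2 change of -0.45. For this list and those that follow, the shares over all tested genes in that pair were 18.9% lower and 19.1% higher. P4HA3, a subunit of the prolyl hydroxylase that stabilises the collagen helix, averaged 0.664 ± 0.499 in DPL and 2.80 ± 1.44 in L (log2 change -2.07 ± 0.34, adjusted p = 1.76e-05). PCOLCE, which speeds removal of the procollagen tail, averaged 13.2 ± 3.53 in DPL and 31.4 ± 4.71 in L (log2 change -1.25 ± 0.19, adjusted p = 3.68e-06). In DLDPL PCOLCE averaged 26.0 ± 6.92, above DPL (log2 change 0.98 ± 0.19, adjusted p = 0.00264).

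Of 9 small leucine-rich proteoglycans, which coat fibrils, 4 fell in DPL and the median log2 change was -0.64. LUM averaged 15.0 ± 5.39 in DPL and 30.9 ± 14.3 in L (log2 change -1.04 ± 0.23, adjusted p = 0.000473), and BGN 6.36 ± 2.56 in DPL and 15.2 ± 8.02 in L (log2 change -1.26 ± 0.28, adjusted p = 0.000718). Of 9 genes that link basement membranes, 5 fell, and NID2, which binds laminin to type IV collagen, averaged 2.24 ± 0.523 in DPL and 5.23 ± 1.03 in L (log2 change -1.22 ± 0.17, adjusted p = 1.16e-06). Of 18 other structural glycoproteins, 3 fell and 1 rose, no larger a share than over all tested genes. The one that rose was THBS1: this thrombospondin averaged 41.3 ± 28.2 in DPL and 3.47 ± 1.45 in L (log2 change 3.57 ± 0.49, adjusted p = 8.42e-07). Of 12 genes that signal in fibrosis, 3 rose and 3 fell, near the shares over all tested genes. CCN1, a matricellular protein that binds integrins, averaged 56.8 ± 14.0 in DPL and 8.17 ± 3.29 in L (log2 change 2.80 ± 0.29, adjusted p = 7.56e-09). Of 12 adhesion plaque genes, 1 rose and 4 fell. VCL, the vinculin that ties integrins to actin, averaged 72.5 ± 19.9 in DPL and 48.5 ± 8.52 in L (log2 change 0.58 ± 0.15, adjusted p = 0.00285).

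Markers of cell types were read beside these values for DPL against L, where 18.9% of all tested genes fell and 19.1% rose. Of 7 tested fibroblast markers 3 fell and 1 rose, and the median log2 change was -0.23. FAP averaged 2.96 ± 0.723 in DPL and 6.39 ± 1.60 in L (log2 change -1.11 ± 0.21, adjusted p = 0.000104), and DPP4 0.992 ± 0.323 in DPL and 2.44 ± 0.478 in L (log2 change -1.30 ± 0.21, adjusted p = 1.06e-05). The summed level of the 8 fibroblast markers in the files was higher on average in DPL, with 108 to 317 (mean 176) in DPL and 99.1 to 248 (mean 136) in L, and the ranges overlapped. Most of that sum was VIM, vimentin, the marker that rose, with 149 ± 51.6 in DPL and 101 ± 40.9 in L (log2 change 0.56 ± 0.22, adjusted p = 0.0435). VIM was picked out after its values were seen, as was DCN. DCN, an abundant fibroblast proteoglycan, is not part of that sum, although its level exceeds the sum itself. DCN averaged 239 ± 85.4 in DPL and 251 ± 24.1 in L (log2 change -0.07 ± 0.17, adjusted p = 0.769). LUM, also a fibroblast proteoglycan, was lower in DPL, with the values given above. As VIM was most of the fibroblast sum, the higher mean of that sum in DPL mainly followed VIM. Summed endothelial markers stood at 26.4 to 58.6 in DPL and 35.9 to 64.9 in L, with 1 of 8 higher and 3 lower. Summed smooth muscle and pericyte markers stood at 2635 to 4947 in DPL and 1828 to 2707 in L, with 3 of 8 higher and 3 lower. Of 6 satellite cell markers 4 fell, with sums of 15.3 to 21.95 in DPL and 28.5 to 50.1 in L, and of 7 muscle fibre markers 4 fell and 1 rose. Of 5 tested lymphocyte markers 3 fell, with sums of 1.63 to 5.97 in DPL and 2.09 to 13.1 in L. The part of these cell types and of the mitochondrial share in the collagen differences was not tested.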

How the data were processed

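The authors deposited 1 file per library with, per the file headers, the counts of uniquely mapped reads per gene, the RPKM and the gene length and percent covered. The deposited RPKM equal the counts divided by the listed length and the library total. Per the submitters' processing notes, Bowtie 0.12.2 and Cufflinks were used and the build was mm8, a mouse build. The gene identifiers are pig Ensembl identifiers, and no positions are printed, because their pig build is not given in the sources used here. The kit does not mark strand, so overlapping antisense genes cannot be told apart. A gene missing from a file was given a count of 0.

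Counts of 12821 genes (filterByExpr, minimum count 10, minimum total 15, 99.97% of reads) were fitted with edgeR 4.0.16 in R 4.3.3: TMM scaling, 1 quasi-likelihood model of the 4 groups over 32 libraries, Benjamini-Hochberg adjustment over all genes, calls at an adjusted p under 0.05. Adjusted p values come from this test except where DESeq2 or limma is named. The SE is the log2 change divided by the square root of F. TMM-scaled RPKM replace the library total by the TMM-adjusted one. The scripts were tested on simulated data. Over the 112 pairs of libraries within a group, chi-square over its degrees of freedom was at least 31.3, so no library duplicated another of its group. Pairs across groups were not part of this check. The alternatives were DESeq2 size factors, DESeq2 1.42.0, limma 3.58.1 on log2(RPKM + 1) or log2(RPKM + 0.1), no filter, 2-group fits, no mitochondrial reads and leaving out each library.

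The members, classes and gene lists were chosen with earlier results of these data known. Named genes were the 4 members per class and the 2 genes per list with the smallest p in the F test over the 4 groups, and a panel of abundant chains. For some lists not all of these genes are given above, among them FBLIM1, EMILIN1 and SMAD3. The lists of dystrophin complex, adipocyte, macrophage, blood and Schwann cell genes are not described above. Other members called in DPL against L could be named with their fold.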

Additional observations from a re-analysis of the deposited data

Results flagged for a closer look

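In 9 of 140 sets of 8 values (4 groups of each named gene), 1 library stood apart from the other 7 by more than Dixon's 95% limit of 0.526 on log2(level + 0.01), where chance gives about 5%. Values are TMM-scaled RPKM.

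L replicate 2 was high for 3 genes: 15.39 for FBLN1, against 2.08 to 4.70 in the other L libraries, 2.219 for COL8A1, against 0.494 to 0.934, and 0.3718 for FBN2, against 0.0785 to 0.165. LDPL replicate 9 was low for 2 genes: 11.75 for COL1A2, against 24.9 to 47.3 in the other LDPL libraries, and 2.718 for LAMA4, against 5.07 to 8.87. DPL replicate 16 stood at 12.79 for FBLN1, against 2.65 to 5.54 in the other DPL libraries. LDPL replicate 4 stood at 7.803 for LOXL4, a lysyl oxidase, against 0.369 to 1.23 in the other LDPL libraries. LDPL replicate 8 stood at 0.0459 for FBN2, against 0.0932 to 0.148. DLDPL replicate 32 stood at 0.04616 for COL27A1, against 0.117 to 0.237 in the other DLDPL libraries.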

How the results depend on the processing

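Of 54 calls of named genes with a direction, 30 held in all of the up to 41 other settings and 0 reversed. Of 35 tests over the 4 groups, 22 stayed on the same side of the threshold. Limma on RPKM, which uses no TMM scaling, moved the median of all genes in DPL against L to -0.12 (pseudocount 1) and -0.18 (0.1), where edgeR gave -0.02, and with 0.1 to 0.15 in DLDPL against DPL and 0.11 in LDPL against DPL. With a pseudocount of 0.1 it split the calls over all genes into 1305 higher and 3426 lower there, 1258 and 1962 in LDPL against L (edgeR 1905 and 1888), 473 and 54 in DLDPL against DPL (edgeR 254 and 272) and 201 and 53 in LDPL against DPL (edgeR 166 and 200). In DLDPL against L, limma called 1 member higher with either pseudocount, and 3 lower with 0.1. In LDPL against L, 2 members were higher with DESeq2 size factors, no filter, DESeq2, mitochondrial reads left out or only those 2 groups. In DPL against L, limma called 1 higher with either pseudocount. In LDPL against DPL, the 2-group fit called 2 higher, and DESeq2 6 higher and 1 lower. Against the midpoint, DESeq2 called 1 higher and 2 lower, and limma called 0 lower with either pseudocount.

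With each library left out in turn, members called ranged as follows: DLDPL against L 1 to 2 higher and 2 to 8 lower, LDPL against L 1 to 3 higher and 11 to 15 lower, DPL against L 2 to 3 higher and 18 to 27 lower. DLDPL against DPL gave 7 to 11 higher, LDPL against DPL 3 to 7 higher, the midpoint 0 to 1 higher and 1 to 2 lower, and any difference 18 to 27. The cause of these moves was not tested.

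LDPL and L share 5 replicate numbers. Deviations from the group means in same-numbered libraries had correlations of -0.051 to 0.091. LDPL replicates 4 and 8 correlated best with the L library of their own number, and no L library did so with LDPL. Correlations over all genes cannot exclude that the numbers pair pigs, and the labels do not say. In the 10 libraries with shared numbers, the fit with the replicate block called 1 member higher and 4 lower, and the fit without it 2 higher and 5 lower, with fewer libraries than the 32. Over all 12821 tested genes, the fit with the block called 993 higher and 808 lower, and the fit without it 1191 and 979. Low-level members such as COL27A1, FBN3 and COL6A5 rest on few reads, where counting error is large.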
